A study of Mus musculus with 13 samples.

Results

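The genes of the proteasome and immunoproteasome were described in RNA-seq of mouse aorta from a 2 by 2 experiment with β-aminopropionitrile (BAPN) and fasudil. Members were all genes whose symbol starts with Psma, Psmb, Psmc, Psmd, Psme, Psmf or Psmg followed by a number, which gave 48 of the 28510 genes with values. Of these, 46 passed the filter on low values and entered the tests, which ran over 13748 genes. The combined group (BAPN with fasudil, 3 libraries) drank 0.25% BAPN for 1 week and then BAPN and fasudil (150 mg/kg/day) together, and per the labels served to induce aortic dissection. The BAPN group (2 of 3 libraries used) drank 0.25% BAPN, the fasudil group (3 libraries) drank fasudil at 150 mg/kg/day, and the vehicle group (4 libraries) drank water. BAPN blocks lysyl oxidase, the enzyme that crosslinks collagen and elastin. All mice had 1 week of acclimatisation and 4 weeks of experiment. Strain, sex and age were not given in the labels, nor whether each library came from a separate mouse, so p-values measure the spread between these libraries, which may be technical.

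The 26S proteasome degrades proteins tagged with ubiquitin. Its 20S core is a barrel of outer rings of alpha subunits (Psma) and inner rings of beta subunits (Psmb), in which Psmb6, Psmb7 and Psmb5 carry the caspase-like, trypsin-like and chymotrypsin-like sites. Interferon-gamma, and some cell types such as leukocytes constitutively, replace these with Psmb9, Psmb10 and Psmb8, which forms the immunoproteasome and favours peptides that bind MHC class I. The 19S cap recognises, unfolds and admits substrates: its base holds a ring of ATPases (Psmc) with large scaffold subunits, and its lid removes the ubiquitin chain. Psme1 and Psme2 form the interferon-inducible PA28 activator, an alternative cap, and Psmg and some Psmd genes encode chaperones that help to assemble the particle.

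All levels are FPKM (fragments per kilobase of transcript, relative to all mapped fragments, as deposited) divided by a scale factor per library, called scaled FPKM. Depth was estimated, from the spacing of low values, at 20.40 to 20.96 M reads per library, and 11127 to 13601 genes reached 1 FPKM. BAPN replicate 2 was left out, because its column equals BAPN replicate 1 plus 1 in all 28510 genes. BAPN replicate 1 stood apart on the first principal component (−61.0, against −14.6 to 19.2 in the other 11 libraries; 40.4% of the variance). BAPN with fasudil replicate 1 stood apart in the interferon-gamma and class I genes described below, and vehicle replicate 3 in airway epithelium markers. Sympathetic neuron markers (6 genes) summed to 663.2 scaled FPKM in BAPN with fasudil replicate 1 and 721.5 in BAPN replicate 1. They summed to 428.6 and 934.6 in fasudil replicates 2 and 3, and to at most 70.9 elsewhere. Cardiac and skeletal muscle markers (8 genes) summed to 610 in fasudil replicate 1 and to at most 219.4 elsewhere. Some results that rest on these libraries are given with and without them, and others only with them. Smooth muscle markers, which define the labelled tissue, were all detected in every library (9 genes, summed 1514 to 9219 scaled FPKM in BAPN with fasudil, 2045 and 4727 in BAPN, 491.9 to 4366 in fasudil and 1671 to 4766 in vehicle), but fat markers were abundant too (8 general adipocyte genes, summed 4895 to 18400 over all libraries).

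Promoter windows from RefSeq (GRCm38.p6; 250 bases before to 50 bases after the annotated start) were available for 40 of the 48 members, as 43 windows. Shown are the immunoproteasome subunits, Psme1 and the first of 2 overlapping windows of Psme2, which were highest in the same library, and the constitutive subunits Psmb5 and Psmb6, which were not. Capitals mark matches, on either strand, to a gamma-activated site (TTCNNNGAA), an interferon-stimulated response element core (GAAANNGAA, bound by IRF factors) or an antioxidant response element core (TGACNNNGC, a form of which NRF1 and NRF2 bind). The windows lie at chr17:34197945-34198244 (+ strand), chr17:34187281-34187580 (- strand), chr8:105938343-105938642 (- strand), chr14:55578244-55578543 (+ strand), chr14:55590972-55591271 (- strand), chr14:54617946-54618245 (- strand) and chr11:70525107-70525406 (+ strand).
Psmb8: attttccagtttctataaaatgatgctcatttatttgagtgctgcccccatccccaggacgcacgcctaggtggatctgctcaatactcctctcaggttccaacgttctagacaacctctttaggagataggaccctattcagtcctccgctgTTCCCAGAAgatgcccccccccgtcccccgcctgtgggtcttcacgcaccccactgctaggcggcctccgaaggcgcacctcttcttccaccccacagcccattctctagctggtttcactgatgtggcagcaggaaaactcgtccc
Psmb9: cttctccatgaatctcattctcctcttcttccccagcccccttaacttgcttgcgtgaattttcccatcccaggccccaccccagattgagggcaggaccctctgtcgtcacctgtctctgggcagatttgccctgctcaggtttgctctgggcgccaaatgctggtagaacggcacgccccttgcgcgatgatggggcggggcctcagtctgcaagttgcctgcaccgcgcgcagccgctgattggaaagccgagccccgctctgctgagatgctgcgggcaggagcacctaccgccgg
Psmb10: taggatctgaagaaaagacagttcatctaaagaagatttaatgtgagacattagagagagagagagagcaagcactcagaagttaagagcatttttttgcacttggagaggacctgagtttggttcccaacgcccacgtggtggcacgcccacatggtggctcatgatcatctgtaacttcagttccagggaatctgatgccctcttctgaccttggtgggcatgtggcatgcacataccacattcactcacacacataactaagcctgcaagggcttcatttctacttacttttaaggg
Psme1: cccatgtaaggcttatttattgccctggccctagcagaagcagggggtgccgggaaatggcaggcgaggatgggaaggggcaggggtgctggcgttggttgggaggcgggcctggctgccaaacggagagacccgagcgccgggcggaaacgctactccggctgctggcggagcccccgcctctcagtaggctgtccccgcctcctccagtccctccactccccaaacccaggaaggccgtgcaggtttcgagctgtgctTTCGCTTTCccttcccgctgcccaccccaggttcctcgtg
Psme2: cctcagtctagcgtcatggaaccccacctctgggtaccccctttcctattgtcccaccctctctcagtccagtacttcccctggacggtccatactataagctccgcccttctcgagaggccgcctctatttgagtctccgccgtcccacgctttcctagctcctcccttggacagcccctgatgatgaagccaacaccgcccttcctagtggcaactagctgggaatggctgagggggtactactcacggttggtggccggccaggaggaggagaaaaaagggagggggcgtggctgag
Psmb5: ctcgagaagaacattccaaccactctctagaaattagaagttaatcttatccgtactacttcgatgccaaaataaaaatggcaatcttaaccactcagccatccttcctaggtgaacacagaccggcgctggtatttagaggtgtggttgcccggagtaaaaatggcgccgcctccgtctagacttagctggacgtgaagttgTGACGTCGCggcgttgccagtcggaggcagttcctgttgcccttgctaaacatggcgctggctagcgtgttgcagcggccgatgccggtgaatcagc
Psmb6: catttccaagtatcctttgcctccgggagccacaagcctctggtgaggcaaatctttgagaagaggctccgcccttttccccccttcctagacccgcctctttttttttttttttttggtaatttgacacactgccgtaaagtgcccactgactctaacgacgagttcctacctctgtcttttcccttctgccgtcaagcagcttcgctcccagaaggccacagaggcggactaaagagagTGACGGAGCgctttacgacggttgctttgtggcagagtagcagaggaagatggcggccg

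In the Psmb8 window the gamma-activated site match, TTCCCAGAA, begins 97 bases before the annotated start, and the Psme1 window holds an interferon-stimulated response element match, TTCGCTTTC on the printed strand, 10 bases after it. The windows of Psmb5 and Psmb6 each hold an antioxidant response element match, TGACGTCGC at 47 bases and TGACGGAGC at 9 bases before the start. The windows of Psmb9 and Psmb10 and both windows of Psme2 hold none of these 3 motifs. The gamma-activated site was in 3 of 43 member windows (6.98%; Psmb8, Psmd2 and Psmg1), against 8.3% of 32851 RefSeq windows. The interferon-stimulated core was in 7 of 43 (16.3%; Psmb3, Psmb4, Psmc2, Psmd4, Psmd9, Psme1 and Psmg4), against 8.56% of all windows. None of these is an immunoproteasome subunit, and Psme1 is the only PA28 gene among them. The antioxidant core was in 6 of 43 (14.0%; Psmb5, Psmb6, Psmc6, Psmd12, Psmd9 and Psme4), against 12.4%. The CCAAT box was in 14 of 43 (32.6%), against 37.4%. Such matches are a description of letters and not of bound sites.

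In vehicle aorta, the 31 subunits of the 20S core and 19S cap other than the immunoproteasome genes, Psma8 and Psmb11 had mean levels of 22.0 (Psmd1) to 137.7 (Psmb3) scaled FPKM, with a median of 57.0. Among the classes of the 20S core and 19S cap, constitutive beta subunits were highest (7 genes, median 95.8), followed by alpha subunits (8 genes with Psma8, median 67.2), non-ATPase base subunits (3 genes, 50.7), ATPases (6 genes, 44.7) and lid subunits (8 genes, 34.3). The activators Psme1 to Psme4 had a median of 64.5 (4 genes). Assembly chaperones stood lower, at a median of 10.3 over 7 genes. The members varied little among vehicle libraries, with a median coefficient of variation of 12.0% over the 31 subunits. The highest members were Psmb3, a structural beta subunit, Psmd8, a lid subunit, and Psme2. Psmb3 had 112, 104 and 105 in BAPN with fasudil, 82.2 and 98.1 in BAPN, 136, 145 and 122 in fasudil and 144, 123, 118 and 167 in vehicle. Psmd8 had 116, 115 and 105 in BAPN with fasudil, 85.8 and 103 in BAPN, 136, 142 and 99.8 in fasudil and 148, 123, 113 and 159 in vehicle. The lowest members were specialised forms of other tissues, Psma8 of the testis (at most 0.434 scaled FPKM in any library) and Psmb11 of the thymic cortex (at most 0.220), which did not pass the filter. Lowest among the tested members was the core particle chaperone Psmg3, at 6.32 ± 0.72 scaled FPKM in vehicle (SD, n = 4). The interferon-inducible members were already present in vehicle, where Psme1 averaged 98.3 ± 14.9, Psme2 132.6 ± 22.7 and Psmb10 24.4 ± 2.67 scaled FPKM (SD, n = 4 each).

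Across the immunoproteasome genes, 1 library dominated. Psmb8 (LMP7, chromosome 17, 34416695 to 34420428, forward strand in the deposited coordinates) had 179, 12.9 and 20.4 scaled FPKM in BAPN with fasudil replicates 1, 2 and 3, 48.2 and 22.7 in BAPN replicates 1 and 3, 23.4, 16.2 and 22.9 in fasudil replicates 1 to 3 and 23.2, 20.4, 22.6 and 20.5 in vehicle replicates 1 to 4; values below keep this order of replicates. Psmb9 (LMP2, chromosome 17, 34400961 to 34406738, reverse strand) had 91.6, 5.21 and 9.21 in BAPN with fasudil, 21.5 and 13.0 in BAPN, 8.87, 6.17 and 11.1 in fasudil and 11.9, 11.5, 11.3 and 10.1 in vehicle. Psmb10 (MECL-1, chromosome 8, 106662367 to 106665076, reverse strand) had 119.6, 21.9 and 24.3 in BAPN with fasudil, 29.5 and 23.1 in BAPN, 26.0, 21.6 and 24.4 in fasudil and 26.1, 22.9, 21.4 and 27.1 in vehicle. BAPN with fasudil replicate 1 was the highest of 12 libraries for all 3 genes, at 10.7, 12.7 and 5.17 times the mean of the other 2 libraries of its group, and those 2 were below every vehicle library for Psmb9. For Psmb8, replicate 2 was below every vehicle library and replicate 3 was level with the lowest. BAPN replicate 1 was the second highest for all 3. Vehicle libraries differed little, with coefficients of variation of 6.59% for Psmb8, 6.86% for Psmb9 and 10.9% for Psmb10.

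The constitutive counterparts did not follow. Psmb5, the chymotrypsin-like subunit that Psmb8 replaces, had 54.4, 56.8 and 59.1 in BAPN with fasudil, 45.2 and 59.2 in BAPN, 72.3, 80.1 and 65.5 in fasudil and 80.6, 76.3, 71.0 and 97.7 in vehicle. Psmb6, the caspase-like subunit replaced by Psmb9, had 113, 112 and 109 in BAPN with fasudil, 88.4 and 103 in BAPN, 112, 129 and 118 in fasudil and 123, 121, 114 and 145 in vehicle. Psmb7, the trypsin-like subunit replaced by Psmb10, had 57.9, 42.7 and 50.1 in BAPN with fasudil, 40.2 and 59.9 in BAPN, 73.0, 86.9 and 64.3 in fasudil and 83.0, 72.4, 64.0 and 92.9 in vehicle. Replicate 1 of BAPN with fasudil stood at 0.938, 1.02 and 1.25 times the mean of the other 2 libraries of its group for these genes. After scaling, all 3 had every BAPN with fasudil and every BAPN library below every vehicle library. As deposited, Psmb6 turned, with 118, 125 and 130 FPKM in BAPN with fasudil and 92.0, 115, 111 and 106 in vehicle. Psmb5 overlapped, at 56.7, 63.6 and 70.6 in BAPN with fasudil against 60.2 to 72.8 in vehicle. Psmb7 stayed lower in every BAPN with fasudil library, at 47.9 to 60.4 against 62.0 to 69.1 in vehicle.

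**Figure D1:**
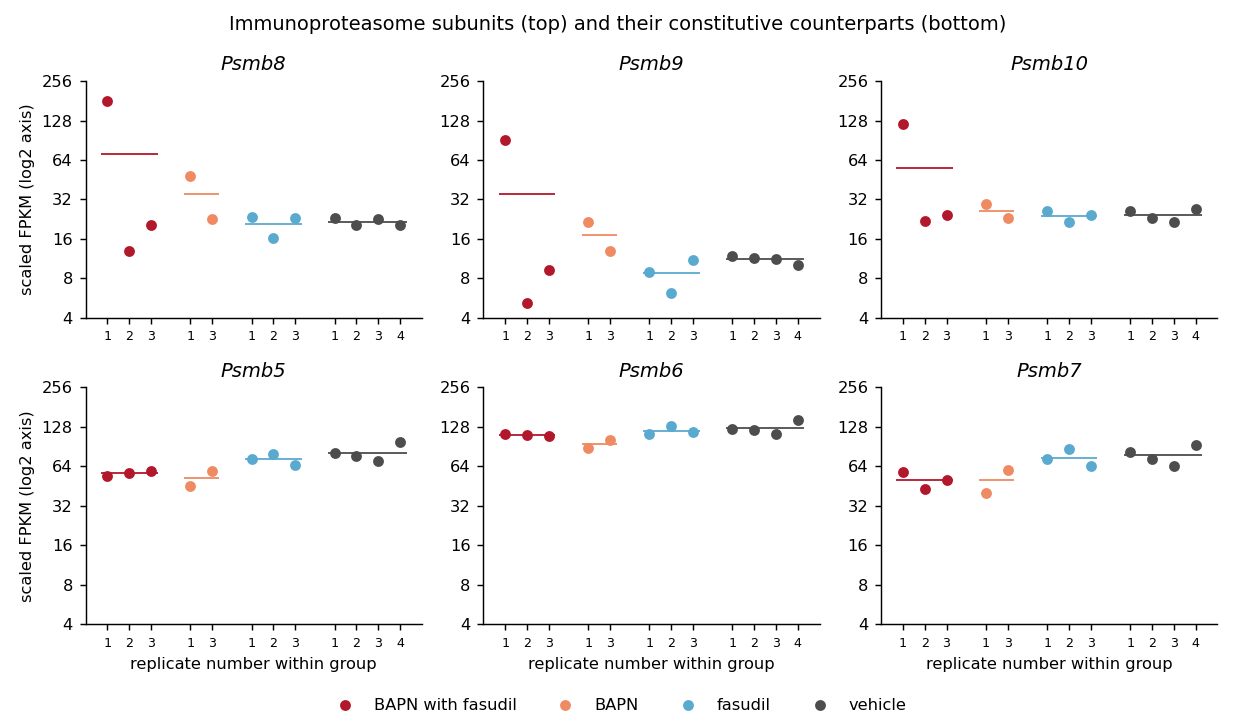
Scaled FPKM (log2 axis) of Psmb8, Psmb9 and Psmb10 in the top row and of the subunits they replace, Psmb5, Psmb6 and Psmb7, in the bottom row, with a point per library by replicate number and a line at each group's mean. BAPN with fasudil replicate 1 stands at 179, 91.6 and 120 scaled FPKM in the top row and within the range of the other libraries in the bottom row.

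The ratio of an immunoproteasome subunit to its counterpart is free of scaling between libraries. Psmb8 over Psmb5 was 3.29 in BAPN with fasudil replicate 1 and 0.227 and 0.346 in replicates 2 and 3, against 0.210 to 0.319 in vehicle. Psmb9 over Psmb6 was 0.812, 0.0467 and 0.0847 in BAPN with fasudil, against 0.0698 to 0.0993 in vehicle. Psmb10 over Psmb7 was 2.07, 0.512 and 0.486 in BAPN with fasudil, against 0.292 to 0.335 in vehicle. Psmb10 over Psmb7 was above the vehicle range in every BAPN with fasudil library, Psmb8 over Psmb5 in replicates 1 and 3, and Psmb9 over Psmb6 in replicate 1 alone. In BAPN replicates 1 and 3 the ratios were 1.07 and 0.383 for Psmb8 over Psmb5, 0.244 and 0.127 for Psmb9 over Psmb6, and 0.735 and 0.386 for Psmb10 over Psmb7, all above the vehicle range. The difference of mean log2 ratios between BAPN with fasudil and vehicle was 1.25, 0.73 and 1.35 for the 3 ratios in that order, and without replicate 1 it was 0.06, −0.50 and 0.67. Between BAPN and vehicle it was 1.25, 0.98 and 0.76, and without BAPN replicate 1 it was 0.52, 0.50 and 0.30. In fasudil the ratios ran from 0.203 to 0.350, from 0.0477 to 0.0946 and from 0.248 to 0.379, each range overlapping that of vehicle.

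None of the immunoproteasome genes passed the test in any comparison. In BAPN with fasudil, the log2 difference from vehicle was 0.73 ± 0.70 (limma, adjusted p = 0.537) for Psmb8, 0.57 ± 0.72 (limma, adjusted p = 0.65) for Psmb9 and 0.70 ± 0.47 (limma, adjusted p = 0.372) for Psmb10. Without BAPN with fasudil replicate 1 the direction turned, to −0.35 for Psmb8, −0.58 for Psmb9 and −0.03 for Psmb10. In BAPN against vehicle the log2 fold change was 0.59 ± 0.79 (limma, adjusted p = 0.705) for Psmb8, 0.54 ± 0.82 (limma, adjusted p = 0.74) for Psmb9 and 0.10 ± 0.53 (limma, adjusted p = 0.932) for Psmb10. Psmb9 was the 1 member of 46 that was higher in both BAPN libraries than in every vehicle library (2.17%; 13.8% of all genes).

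The PA28 activator genes followed the immunoproteasome genes in the same library. Psme1 (PA28 alpha, chromosome 14, 55815580 to 55818986, forward strand) had 278, 91.2 and 88.5 in BAPN with fasudil, 90.6 and 82.3 in BAPN, 109, 73.6 and 98.4 in fasudil and 112, 79.3, 93.8 and 108 in vehicle. Its partner Psme2 (PA28 beta, chromosome 14, 55824898 to 55828570, reverse strand) had 199, 64.4 and 80.0 in BAPN with fasudil, 72.1 and 92.7 in BAPN, 111, 88.8 and 89.1 in fasudil and 153, 117, 109 and 151 in vehicle. BAPN with fasudil replicate 1 was the highest of 12 libraries for both, at 3.09 and 2.76 times the mean of the other 2 libraries of its group. Outside that library Psme2 was lower than in vehicle in every BAPN with fasudil and BAPN library, and Psme1 was not. Psme1 over Psme2 was 1.40, 1.42 and 1.11 in BAPN with fasudil and 1.26 and 0.888 in BAPN, against 0.677 to 0.859 in vehicle, so both groups lay above the vehicle range. In fasudil it was 0.988, 0.830 and 1.105, with 2 of 3 libraries above that range. Between BAPN with fasudil and vehicle the log2 difference was 0.42 ± 0.36 (limma, adjusted p = 0.483) for Psme1, which became −0.08 without replicate 1, and -0.37 ± 0.33 (limma, adjusted p = 0.508) for Psme2. The related caps Psme3 (PA28 gamma, a nuclear form) and Psme4 (PA200) showed no such peak, with replicate 1 at 1.10 and 1.02 times the mean of the other 2 libraries of its group.

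The genes that accompany the immunoproteasome in antigen presentation were highest in the same library. Of 14 interferon-gamma response genes, 12 were highest in BAPN with fasudil replicate 1, where they summed to 1322 scaled FPKM, against 58.4 and 84.4 in replicates 2 and 3 of its group, 239.5 and 103.7 in BAPN, 76.6 to 129.3 in fasudil and 81.7 to 198.3 in vehicle. Among them Gbp2, a guanylate-binding protein induced by interferon-gamma, had 271, 6.49 and 9.86 in BAPN with fasudil, 31.2 and 13.5 in BAPN, 10.5, 5.25 and 10.7 in fasudil and 16.9, 10.2, 11.0 and 10.1 in vehicle. Of 10 class I genes, 8 were highest in this library, at a sum of 6923, against 1516 and 1797 in the other libraries of its group, 3163 and 1730 in BAPN, 1511 to 2002 in fasudil and 1562 to 1996 in vehicle. Tap1, a peptide transporter whose gene lies next to Psmb9, had 88.4, 5.66 and 9.69 in BAPN with fasudil, 22.4 and 10.4 in BAPN, 12.0, 8.21 and 9.91 in fasudil and 14.6, 9.02, 10.6 and 12.5 in vehicle. In all 13748 tested genes, the share highest in this library was 12.5%. No gene of either list passed the test in BAPN with fasudil against vehicle, where their median log2 fold changes were 0.77 and 0.40, against 0.05 over all tested genes. These medians include replicate 1, and none was taken without it. In replicates 2 and 3 the sums of both lists lay within or below the vehicle range.

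**Figure D2:**
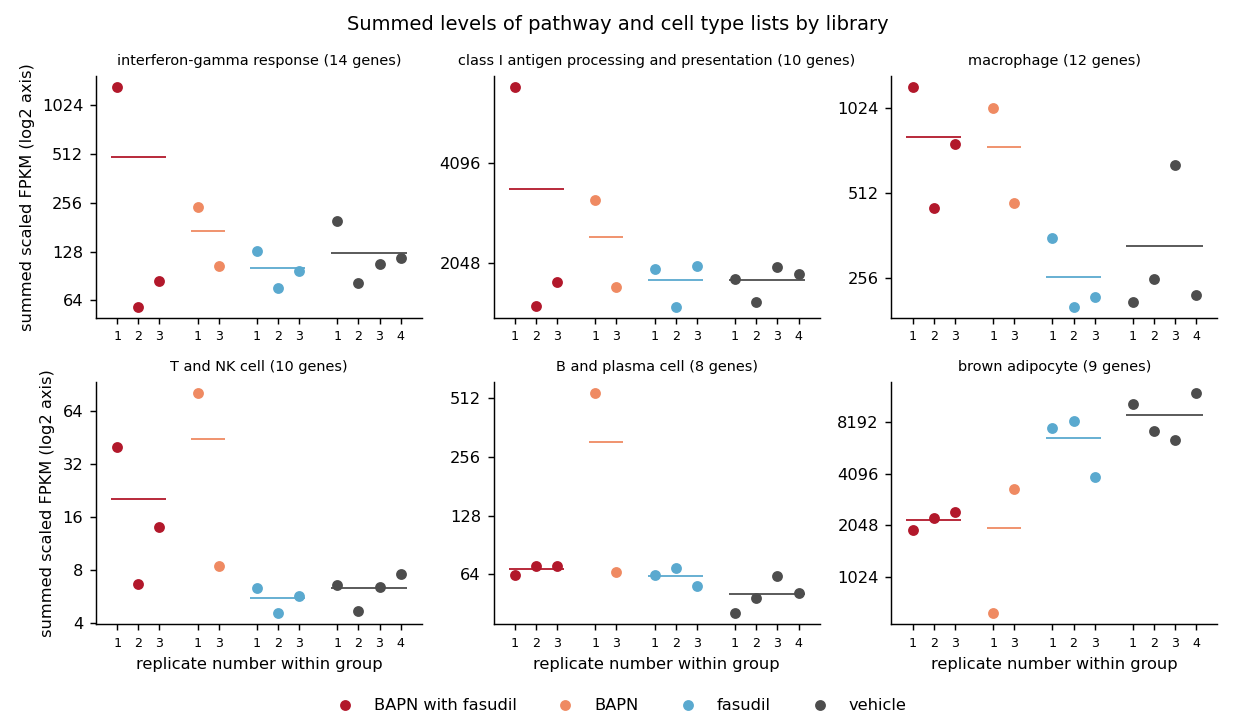
Summed scaled FPKM (log2 axis) of 6 gene lists, with a point per library by replicate number and a line at each group's mean. The interferon-gamma and class I lists peak in BAPN with fasudil replicate 1 at 1322 and 6923, the T and NK cell and B and plasma cell lists peak in BAPN replicate 1 at 80.3 and 544.5, and the brown adipocyte list is lower in every BAPN with fasudil and BAPN library than in every vehicle library.

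Leukocyte markers were high in these libraries as well. Pan leukocyte markers (6 genes) summed to 154.7, 67.4 and 102.9 scaled FPKM in BAPN with fasudil and 184.6 and 59.8 in BAPN, against 31.3 to 54.4 in fasudil and 35.8 to 44.4 in vehicle. Macrophage markers (12 genes) summed to 1214, 453.4 and 763.2 in BAPN with fasudil, 1020 and 470.7 in BAPN, 202.5 to 354.6 in fasudil and 209.8, 254.1, 644.6 and 222.5 in vehicle, with 10 of the 12 highest in BAPN with fasudil replicate 1. In vehicle replicate 3, the library with airway markers, Lyz2 alone had 514 scaled FPKM, and every BAPN with fasudil and BAPN library was above the other 3 vehicle libraries. T and NK cell markers (10 genes) summed to 39.9, 6.64 and 14.0 in BAPN with fasudil and 80.3 and 8.43 in BAPN, against 4.56 to 6.35 in fasudil and 4.69 to 7.64 in vehicle. BAPN replicate 1 exceeded BAPN with fasudil replicate 1 in pan leukocyte, T and NK cell and B and plasma cell markers. It stood below that library in macrophage markers, and its Psmb8, at 48.2 scaled FPKM, was below the 179 there. No pan leukocyte, macrophage or T and NK cell marker was at 0 in any library. The part of these cells in the immunoproteasome values was not tested, and in whole aorta more cells of a type and more RNA per cell cannot be told apart. Of these lists, 4 of 12 macrophage markers (C1qb, C1qc, Mrc1 and Tyrobp) rose in BAPN with fasudil, by 1.35 (Mrc1) to 2.03 (C1qb) on the log2 scale (limma, adjusted p = 0.0473 and 0.0446). Without BAPN with fasudil replicate 1 none of the 4 passed, at 1.11 (Mrc1) to 1.69 (Tyrobp) on the log2 scale (limma, adjusted p = 0.074 and 0.0822), and the calls of all 4 were likewise lost without any 1 of BAPN with fasudil replicate 3, fasudil replicate 1 or 2, and the 4 vehicle libraries, with adjusted p up to 0.146 (limma).

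For the remaining proteasome genes the levels in BAPN with fasudil lay slightly below those in vehicle. Of 46 tested members, 0 passed the test (limma, adjusted p under 0.05), against 1.11% of all tested genes (153 genes). At an unadjusted p under 0.05, 11 members were lower (23.9%; 13.9% of all genes) and 0 higher. The log2 fold change was below 0 in 39 of 46 members (84.8%), against 45.2% of all genes, and its median over the 43 members other than Psmb8, Psmb9 and Psmb10 was −0.26, against 0.05 over all genes. In 12 members every BAPN with fasudil library was below every vehicle library (26.1%), against 16% of all genes. By class, the median log2 fold change was −0.37 for the alpha ring, −0.35 for the constitutive beta ring, −0.20 for the ATPases, −0.26 for the other base subunits, −0.30 for the lid and −0.17 for the chaperones. The count at an unadjusted p rested on single libraries. Without BAPN with fasudil replicate 2 it was 4 members (8.7%; 10.1% of all genes) and without replicate 3 it was 5 (10.9%; 12.1% of all genes), shares no higher than those of all genes. Without vehicle replicate 1 or 4 it was 6 (13%; 10.6% and 9.59% of all genes), and without BAPN with fasudil replicate 1 it was 15 (32.6%; 11.2% of all genes). Without vehicle replicate 3 it was also 15 (32.6%; 14.7% of all genes). The median over the 43 members stayed between −0.33 and −0.19 without each library in turn. Without BAPN replicate 1, 3 members (Psmb5, Psmb7 and Psmd10) were called lower (6.52%), against 11.8% of all genes called, and without BAPN replicate 3 Psmb5 was (2.17%), against 9.73%. With library quality weights 20 members were called lower (43.5%), against 30.8% of all genes called. In that setting BAPN with fasudil replicates 1, 2 and 3 had weights of 0.342, 1.055 and 4.099, so the group rested mostly on replicate 3. Shares of all genes called count both directions, here and elsewhere. The members and lists were chosen with earlier results of these data in view, so these counts carry no test of their own.

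**Figure D3:**
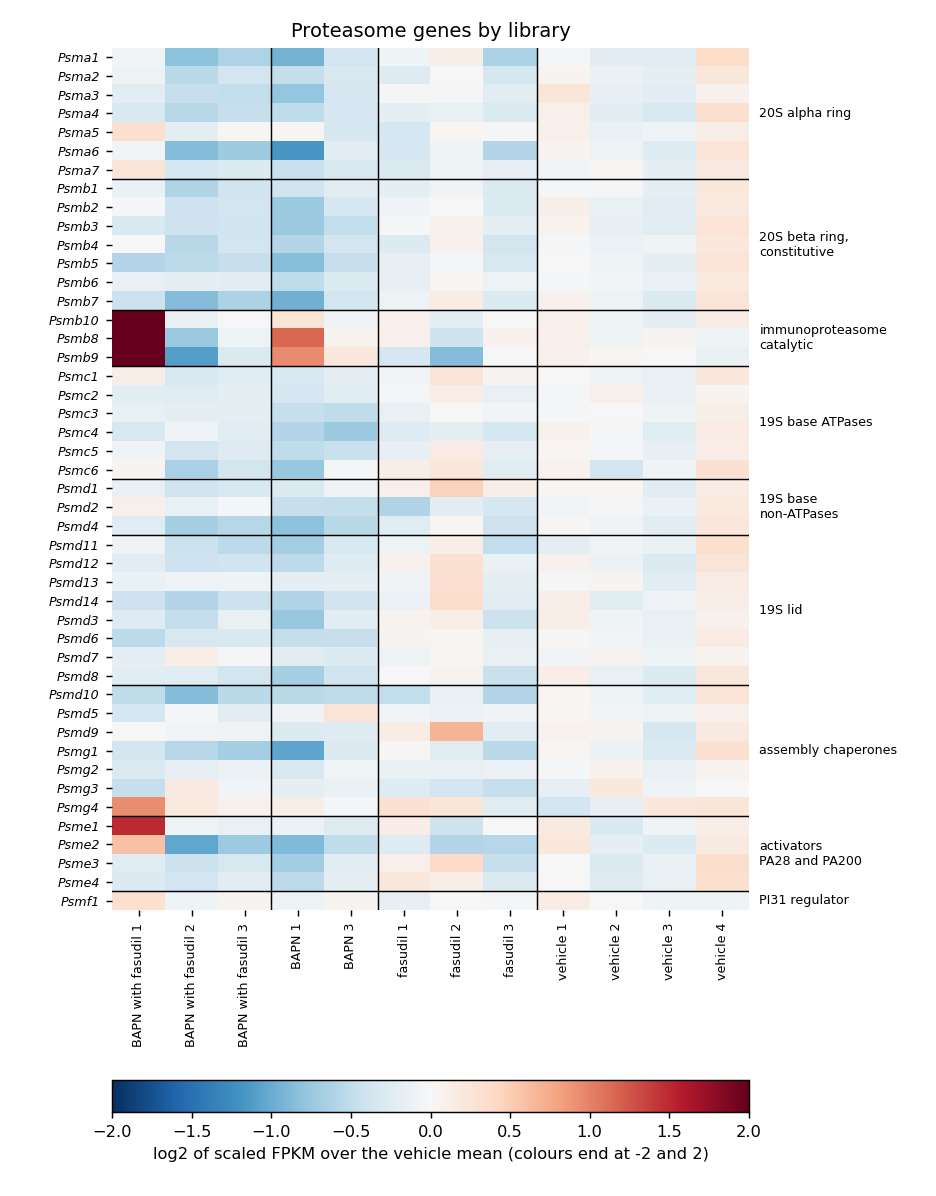
Log2 of scaled FPKM over the vehicle mean for the 46 tested members (rows, by subunit class) in 12 libraries (columns, by group and replicate number); colours end at −2 and 2. The rows of Psmb8, Psmb9, Psmb10, Psme1 and Psme2 each have their highest value in BAPN with fasudil replicate 1, most other rows are pale blue in the BAPN with fasudil and BAPN columns, and vehicle replicate 4 is pale red in most rows.

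The members with the smallest p in BAPN with fasudil against vehicle were Psmd10, Psmb5, Psmd6, Psmb7 and Psmd14. Psmd10 (gankyrin), a chaperone of the 19S base that binds the ATPase Psmc4, had 5.04, 3.93 and 4.93 in BAPN with fasudil, 4.93 and 5.05 in BAPN, 5.09, 6.47 and 4.76 in fasudil and 7.35, 6.72, 6.05 and 8.52 in vehicle. Its log2 fold change was -0.53 ± 0.14 (limma, adjusted p = 0.0687), and every BAPN with fasudil library was below every vehicle library. Psmd6, a lid subunit, had 20.7, 23.8 and 24.1 in BAPN with fasudil, 21.5 and 21.6 in BAPN, 30.9, 30.7 and 26.5 in fasudil and 30.2, 28.6, 27.0 and 33.3 in vehicle. Psmd14, the lid protease that removes ubiquitin chains, had 18.7, 16.6 and 18.6 in BAPN with fasudil, 16.5 and 19.1 in BAPN, 23.1, 32.0 and 21.6 in fasudil and 27.5, 21.2, 23.8 and 27.5 in vehicle. Both were below the vehicle range in every BAPN with fasudil library, at log2 fold changes of -0.36 ± 0.11 (limma, adjusted p = 0.0906) for Psmd6 and -0.45 ± 0.15 (limma, adjusted p = 0.11) for Psmd14. For the catalytic subunits the log2 fold changes were -0.50 ± 0.15 (limma, adjusted p = 0.0825) for Psmb5, -0.62 ± 0.19 (limma, adjusted p = 0.0906) for Psmb7, the lowest of all members, and -0.17 ± 0.13 (limma, adjusted p = 0.425) for Psmb6. Highest after the immunoproteasome genes and Psme1 was the chaperone Psmg4, named after its values were seen, at 0.40 ± 0.22 (limma, adjusted p = 0.289), with replicate 1 at 1.73 times the mean of the other 2 libraries of its group.

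BAPN alone stood further below vehicle. In BAPN against vehicle 0 of 46 members passed the test (limma), against 0% of all tested genes. At an unadjusted p under 0.05, 21 members were lower (45.7%; 12.3% of all genes) and 0 higher, and 41 were below 0 (89.1%; 48.6% of all genes). In 27 members both BAPN libraries were below every vehicle library (58.7%), against 16% of all genes, and the median log2 fold change over the 43 members was −0.42, against 0.01 over all genes. With 2 libraries in the group these values rest much on BAPN replicate 1, which was the lowest of 12 libraries for 24 of 46 members. Without it 8 members were lower at an unadjusted p under 0.05 (17.4%; 3.2% of all genes), at a median of −0.27, and without vehicle replicate 4, 13 were (28.3%; 8.4% of all genes), at a median of −0.32. The constitutive beta ring had the lowest class median, −0.52, with 7 of 7 genes below 0 and 6 at an unadjusted p under 0.05.

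Psmc4, a 19S ATPase, had the smallest p, with 55.4, 65.3 and 59.1 in BAPN with fasudil, 46.2 and 41.1 in BAPN, 57.5, 60.9 and 54.1 in fasudil and 73.0, 67.0, 58.6 and 77.9 in vehicle. Another ATPase, Psmc3, had 54.9, 53.0 and 53.9 in BAPN with fasudil, 44.4 and 42.9 in BAPN, 54.7, 61.0 and 58.3 in fasudil and 59.3, 60.4, 57.5 and 66.4 in vehicle. Both were lower in the BAPN libraries than in all others, at log2 fold changes against vehicle of -0.65 ± 0.15 (limma, adjusted p = 0.112) for Psmc4 and -0.47 ± 0.12 (limma, adjusted p = 0.116) for Psmc3. The ubiquitin receptor Psmd4 had 70.3, 52.0 and 55.8 in BAPN with fasudil, 46.8 and 56.2 in BAPN, 70.4, 84.7 and 62.0 in fasudil and 84.5, 78.9, 70.5 and 97.4 in vehicle, at a log2 fold change of -0.67 ± 0.19 (limma, adjusted p = 0.126). Psma6, an alpha subunit and the lowest member by log2 fold change, had 89.8, 51.2 and 57.5 in BAPN with fasudil, 41.6 and 79.7 in BAPN, 74.3, 88.0 and 62.7 in fasudil and 97.5, 87.0, 78.0 and 112 in vehicle, so that BAPN replicates 1 and 3 differed more from each other than replicate 3 did from vehicle. Its log2 fold change was -0.68 ± 0.29 (limma, adjusted p = 0.239). For Psmb5 it was -0.63 ± 0.17 (limma, adjusted p = 0.12), for Psmd6 -0.44 ± 0.13 (limma, adjusted p = 0.126), for Psme2 -0.67 ± 0.38 (limma, adjusted p = 0.357) and for Psme1 -0.17 ± 0.40 (limma, adjusted p = 0.838). With BAPN replicate 2 recovered from the deposited group mean, 10 of 46 members were called lower in this comparison (21.7%), against 6.82% of all genes called. Without BAPN replicate 3, 5 were (10.9%; Psma3, Psma6, Psmb5, Psmb7 and Psmg1), against 12.1% of all genes called.

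**Figure D4:**
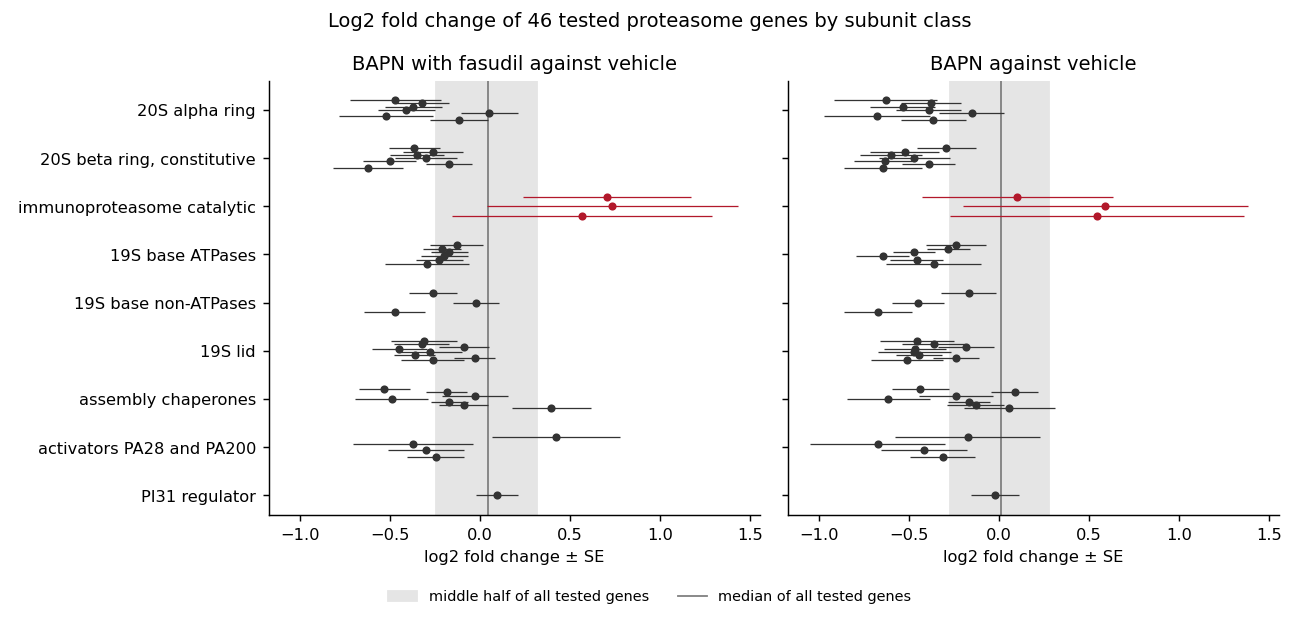
Log2 fold change ± SE (limma) of the 46 tested members by subunit class, for BAPN with fasudil against vehicle on the left and BAPN against vehicle on the right; the grey band spans the lower to the upper quartile of all tested genes and the grey line their median. Psmb8, Psmb9 and Psmb10, in red, lie above 0 with wide errors, and most other members lie below 0 with the median over 43 members at −0.26 and −0.42.

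Whether these levels count as lower depended on the scaling. As deposited, the summed FPKM of the 31 core subunits was 1824, 1635 and 1812 in BAPN with fasudil and 1718 and 1641 in BAPN, against 1516, 1976 and 1836 in fasudil and 1494, 1733, 1664 and 1659 in vehicle, with all groups overlapping. After scaling it was 1749, 1460.0 and 1518 in BAPN with fasudil and 1269 and 1517 in BAPN, against 1775, 2014 and 1611 in fasudil and 2001, 1817, 1702 and 2255 in vehicle. Without scaling, the median log2 fold change over the 43 members was 0.12 in BAPN with fasudil against vehicle and 0.08 in BAPN against vehicle, while that of all tested genes was 0.35 and 0.43, so that the direction flipped and the members stayed below the median gene. The scale factors were 1.04 to 1.19 in BAPN with fasudil and 1.08 and 1.35 in BAPN, against 0.854 to 1.14 in fasudil and 0.736 to 0.978 in vehicle. Statements that every library of a group lay above or below those of another refer to scaled levels, and some, such as that for Psmb6, did not hold as deposited.

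**Figure D5:**
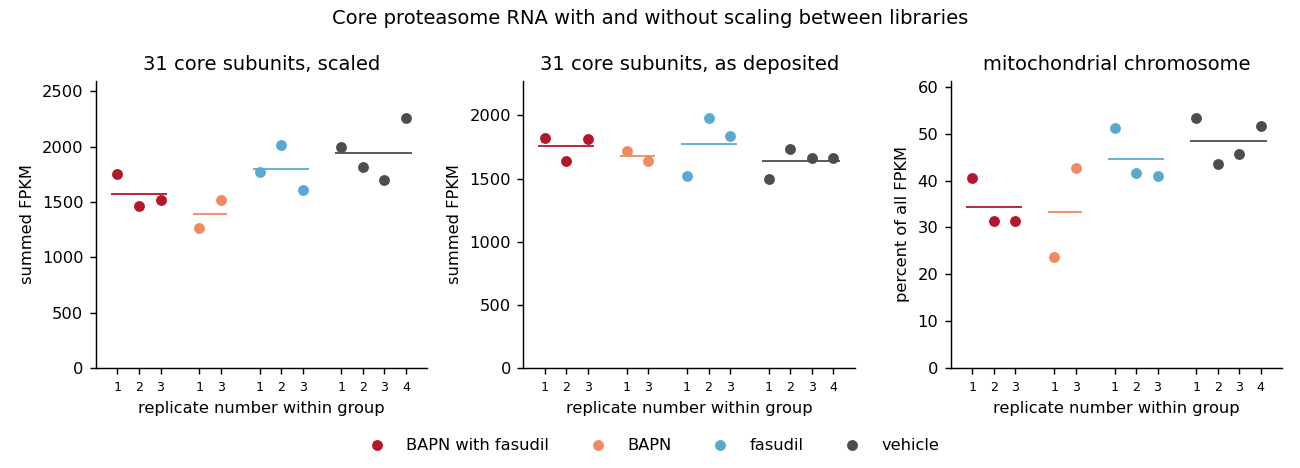
Summed FPKM of 31 core subunits after scaling (left) and as deposited (middle), and the percent of all deposited FPKM from 18 mitochondrial chromosome genes (right), with a point per library by replicate number and a line at each group's mean; axes start at 0. The scaled sums are 1460.0 to 1749 in BAPN with fasudil and 1702 to 2255 in vehicle, and the deposited sums are 1635 to 1824 and 1494 to 1733.

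Brown adipocyte markers and mitochondrial transcripts were lower in every BAPN with fasudil and BAPN library than in every vehicle library. Across single libraries they did not always move with the scaled core sums. Fasudil replicate 2 had a sum of 2014 and BAPN replicate 3 had 1517, at similar mitochondrial shares (41.6% and 42.8%). Genes of the mitochondrial chromosome took 40.5%, 31.3% and 31.4% of all FPKM in BAPN with fasudil and 23.7% and 42.8% in BAPN, against 51.1%, 41.6% and 40.9% in fasudil and 53.3%, 43.6%, 45.6% and 51.6% in vehicle. FPKM is relative to all mapped fragments, so this share enters the level of every other gene and the scale factors. Per 1000000 FPKM of all other genes, core subunits summed to 3704, 3191 and 3516 in BAPN with fasudil. They summed to 3076 and 3685 in BAPN, 3623, 4169 and 3968 in fasudil and 3640, 3817, 3657 and 3911 in vehicle. BAPN with fasudil replicate 1 and BAPN replicate 3 lay within the vehicle range, and the others of both groups below it. Brown adipocyte markers (9 genes, none at 0 in any library) summed to 1918, 2255 and 2451 scaled FPKM in BAPN with fasudil and 631.7 and 3342 in BAPN, against 3924 to 8293 in fasudil and 6450 to 12010.0 in vehicle. Of these markers Elovl3 and Ucp3 fell in BAPN with fasudil, with log2 fold changes of −3.88 and −2.96 (limma, adjusted p = 0.0484 and 0.0343). Both calls were lost without any 1 of BAPN with fasudil replicate 1 or 2, fasudil replicate 1 or 2, and the 4 vehicle libraries, at adjusted p up to 0.146 for Elovl3 and 0.127 for Ucp3 (limma). The library lowest for the core subunits, BAPN replicate 1, was also the lowest for brown adipocyte markers, and the highest, vehicle replicate 4, was the highest for them. Their part in the proteasome levels was not tested.

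In fasudil alone, most members lay slightly below vehicle after scaling, and few differed at an unadjusted p. In fasudil against vehicle 0 of 46 members passed the test (limma), against 0% of all tested genes. At an unadjusted p under 0.05, 2 members were lower (4.35%; 3.38% of all genes) and 0 higher, and in 2 members, Psmd2 and Psmg3, every fasudil library was below every vehicle library (4.35%; 4.82% of all genes). The log2 fold change was below 0 in 36 of 46 members (78.3%), against 52.7% of all genes. The median log2 fold change over the 43 members was −0.07, against −0.02 over all genes. As deposited, the 31 core subunits summed to 1516, 1976 and 1836 in fasudil and 1494 to 1733 in vehicle. Psmd2 and Psmg3 in fasudil then overlapped vehicle. Vehicle replicate 4 was the highest of 12 libraries for 22 of 46 members (17.4% of all genes), and the counts of this comparison are not given without it. Psmd2, the base subunit that binds ubiquitin-like shuttle proteins, had 54.3, 45.7 and 49.7 in BAPN with fasudil, 37.0 and 36.5 in BAPN, 33.6, 43.3 and 39.9 in fasudil and 49.1, 49.5, 46.3 and 58.0 in vehicle. Its log2 fold change was -0.38 ± 0.13 (limma, adjusted p = 0.602), the smallest p in this comparison. Psmg3 had 4.59, 7.13 and 6.06 in BAPN with fasudil, 5.58 and 5.77 in BAPN, 5.30, 4.85 and 4.60 in fasudil and 5.65, 7.32, 5.98 and 6.33 in vehicle, at a log2 fold change of -0.30 ± 0.14 (limma, adjusted p = 0.643). Also among the 5 smallest p were Psmd10 at -0.34 ± 0.14 (limma, adjusted p = 0.64) and Psmc4 at -0.25 ± 0.13 (limma, adjusted p = 0.653). At the ends of the range stood Psmd1 at 0.22 ± 0.13 (limma, adjusted p = 0.713) and Psme2 at -0.45 ± 0.33 (limma, adjusted p = 0.763).

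Most members had slightly higher values in BAPN with fasudil than in BAPN alone, and none passed the test. In BAPN with fasudil against BAPN 0 of 46 members passed the test (limma), against 0.00727% of all tested genes (1 gene). At an unadjusted p under 0.05, 3 members were higher (6.52%; 2.09% of all genes) and 0 lower, and 6 were below 0 (13.0%; 45.1% of all genes). In 11 members every BAPN with fasudil library was above both BAPN libraries (23.9%; 7.96% of all genes), and the median log2 fold change over the 43 members was 0.14, against 0.03 over all genes. BAPN replicate 1 was the lowest library for 24 of 46 members, and these counts are not given without it. As deposited, BAPN with fasudil replicate 1 was below BAPN replicate 1 for Psmc4 (57.8 and 62.6 FPKM) and Psmc3 (57.2 and 60.1). Psmd2 stayed above both BAPN libraries as deposited. The smallest p belonged to Psmc4 at 0.45 ± 0.15 (limma, adjusted p = 1), Psmd2 at 0.43 ± 0.15 (limma, adjusted p = 1) and Psmc3 at 0.30 ± 0.12 (limma, adjusted p = 1), which were the 3 members higher at an unadjusted p under 0.05. Psmd7, the lid partner of Psmd14, had 37.0, 46.4 and 40.9 in BAPN with fasudil, 36.3 and 34.9 in BAPN, 39.4, 43.3 and 38.1 in fasudil and 40.6, 44.2, 39.6 and 44.3 in vehicle, and after scaling stood above both BAPN libraries in all 3 libraries, at 0.21 ± 0.13 (limma, adjusted p = 1). As deposited, its BAPN with fasudil replicate 1 had 38.6 FPKM, below the 49.1 of BAPN replicate 1. The base chaperone Psmd5 had 13.4, 16.6 and 14.6 in BAPN with fasudil, 16.1 and 20.3 in BAPN, 16.4, 15.6 and 16.2 in fasudil and 17.5, 16.3, 15.9 and 18.2 in vehicle, the lowest log2 fold change at -0.27 ± 0.14 (limma, adjusted p = 1). The highest was that of Psmb10 at 0.60 ± 0.56 (limma, adjusted p = 1), which became −0.12 without BAPN with fasudil replicate 1.

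Against fasudil alone, most members had lower values in BAPN with fasudil. Here too 0 of 46 members passed the test (limma), against 0.0145% of all tested genes (2 genes). With library quality weights, 10 members were called (9 lower, 1 higher; 21.7%), against 27.6% of all genes called. At an unadjusted p under 0.05, 5 members were lower (10.9%; 8.95% of all genes) and 1, Psmd2, higher, and 33 were below 0 (71.7%; 49.1% of all genes). In 10 members every BAPN with fasudil library was below every fasudil library (21.7%; 11% of all genes), and the median log2 fold change over the 43 members was −0.19, against 0.01 over all genes. Psmd1, the large scaffold subunit of the base, had the smallest p, with 19.9, 16.8 and 17.7 in BAPN with fasudil, 18.0 and 20.9 in BAPN, 23.6, 30.3 and 23.8 in fasudil and 22.4, 22.5, 18.7 and 24.4 in vehicle, at -0.48 ± 0.14 (limma, adjusted p = 0.188). The next were Psmd6 at -0.35 ± 0.12 (limma, adjusted p = 0.208), Psmd14 at -0.47 ± 0.16 (limma, adjusted p = 0.209), Psmb7 at -0.56 ± 0.21 (limma, adjusted p = 0.215) and Psmd2 at 0.35 ± 0.14 (limma, adjusted p = 0.229). The fifth lower member was Psmd12, a lid subunit named after its values were seen, at -0.42 ± 0.16 (limma, adjusted p = 0.231). Psmb9 had the highest log2 fold change, 0.92 ± 0.77 (limma, adjusted p = 0.509), which became −0.21 without BAPN with fasudil replicate 1.

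The interaction, which asks whether fasudil acted differently with and without BAPN, passed the test in 0 of 46 members (limma), against 0.00727% of all tested genes (1 gene). At an unadjusted p under 0.05, 3 members were higher (6.52%; 2.43% of all genes) and 0 lower, and 4 were below 0 (8.7%; 43.9% of all genes). After scaling, Psmd2 was higher in every BAPN with fasudil library than in both BAPN libraries and lower in every fasudil library than in every vehicle library, at an interaction of 0.80 ± 0.20 (limma, adjusted p = 0.894) on the log2 scale. As deposited, the first order held, but fasudil overlapped vehicle. Psmc4 had 0.70 ± 0.20 (limma, adjusted p = 0.894) and Psmc3 0.37 ± 0.16 (limma, adjusted p = 0.894). Psma7, an alpha subunit, had 78.1, 51.4 and 54.4 in BAPN with fasudil, 48.4 and 52.7 in BAPN, 54.0, 61.5 and 58.5 in fasudil and 63.4, 67.0, 57.6 and 74.5 in vehicle, at an interaction of 0.42 ± 0.25 (limma, adjusted p = 0.894). Psmg3 had 0.34 ± 0.22 (limma, adjusted p = 0.894), and Psmd1 the lowest value, -0.32 ± 0.21 (limma, adjusted p = 0.894). The comparisons share their libraries, so their values are not independent of each other.

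Genes that work with the proteasome were read from a list of 16, of which 15 were in the table and tested. In BAPN with fasudil against vehicle 0 of 15 passed the test and the median log2 fold change was −0.14, against 0.05 over all genes, and in BAPN against vehicle 0 of 15 passed at a median of −0.31, against 0.01. Pomp, the chaperone that matures the 20S core and is needed for immunoproteasome assembly, had 117, 79.2 and 88.2 in BAPN with fasudil, 79.6 and 75.0 in BAPN, 90.3, 95.9 and 93.3 in fasudil and 97.5, 93.9, 103 and 114 in vehicle, with its highest level in BAPN with fasudil replicate 1. Of the 6 genes of the NRF1 route, by which cells raise proteasome genes when proteolysis falls short, 0 passed the test in BAPN with fasudil against vehicle. Nfe2l1, which encodes NRF1, had 50.5, 56.6 and 55.4 in BAPN with fasudil, 43.3 and 66.4 in BAPN, 73.5, 75.6 and 55.0 in fasudil and 89.6, 74.7, 69.0 and 91.7 in vehicle, and every BAPN with fasudil and every BAPN library was below every vehicle library. Mafk, a small MAF protein that pairs with NRF1 and NRF2, had 22.0, 22.6 and 14.8 in BAPN with fasudil, 17.0 and 10.9 in BAPN, 8.04, 7.86 and 7.40 in fasudil and 9.36, 11.2, 11.0 and 7.76 in vehicle. Every BAPN with fasudil library was above every vehicle library, at a log2 fold change of 0.93 ± 0.19 (limma, adjusted p = 0.0511). Without each library in turn the log2 fold change was 0.83 to 1.12, and without vehicle replicate 4 it was 0.83 (limma, adjusted p = 0.157). Maff, another small MAF, was at 35.2 scaled FPKM in BAPN with fasudil replicate 1 and at 3.02 to 8.73 in the other 11 libraries.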

How the data were processed

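RNA was taken from whole aorta with a TRIzol kit and sequenced on an instrument that the labels name both as DNBSEQ and as an Illumina HiSeq. The authors deposited 1 table of FPKM values per gene and library, made per the submitters' processing notes with RSEM and Bowtie2 (DESeq2 and the builds GRCm39 and mm10 are listed too, with no role); versions and settings are not given in the sources used here. The deposited gene positions match GRCm38 (mm10) in 725 of 28343 genes and in 0 of 48 members, so they were taken as GRCm39; the row of Psma3 has no strand and spans far more than a gene, so its position was not used. No counts were used, so a count test was not possible. Of 36082 rows, 7572 have no values.

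The column of BAPN replicate 2 equals that of replicate 1 plus 1 in 28510 genes and was left out. The deposited BAPN mean fits a different column (in 28495 genes it differs from the mean of the 3 columns; in the other groups in 0), and the values it implies for replicate 2 served as an alternative only.

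Each library was divided by an unweighted trimmed mean of log ratios (30% of ratios and 5% of levels trimmed at each end). Genes that reached 1 FPKM in 2 or more libraries were tested with limma 3.58.1 (R 4.3.3) on log2(scaled FPKM + 1), with a mean-variance trend and a robust prior, 4 groups in 1 fit (8 residual degrees of freedom) and Benjamini-Hochberg adjustment over all 13748 genes. The pseudocount of 1 understates fold changes of low genes. The procedure was tested on simulated data with known changes. These changes were larger than the differences of members reported here, and no simulated library was outlying. The simulation therefore does not show whether differences of this size would be found. Fold changes and their standard errors (±) are on this log2 scale. Figures were drawn with matplotlib 3.10.9.

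Members, gene lists and tests were chosen with earlier results of these data known. Named with values in every library were the immunoproteasome subunits, their counterparts, Psme1 and Psme2, and in each comparison the members with the highest and lowest fold change and the 5 smallest p; also the 3 highest and 3 lowest members in vehicle. Genes of the lists that are shown singly were chosen after their values were seen. Near-identical copies were low: 5 pseudogene rows reached at most 0.388 scaled FPKM, but how the authors assigned reads shared with them is not given in the sources used here. Alternatives were other pseudocounts, filters, scalings, priors, library weights, a replicate block, the recovered BAPN library and leaving out each library.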

Additional observations from a re-analysis of the deposited data

Results flagged for a closer look

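Vehicle replicate 4 had the lowest ratio of Psmb9 to Psmb6, 0.0698, far from the other 3 vehicle libraries, which lay between 0.0950 and 0.0993. It was the 1 library that stood out so among 28 values examined in the vehicle group, and chance alone gives about 1 in 20 such groups.

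After scaling, Psmd2, the shuttle-binding subunit of the 19S base, was higher in every BAPN with fasudil library than in both BAPN libraries, and lower in every fasudil library than in every vehicle library. As deposited, the first order held, but fasudil (28.7, 42.5 and 45.5 FPKM) overlapped vehicle (36.7, 47.2, 45.3 and 42.7). The difference between the effects was 0.80 ± 0.20 on the log2 scale, which did not pass the test over all genes (limma interaction, adjusted p = 0.894).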

How the results depend on the processing

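Of 1074 values of single genes under 12 other settings and without each of 12 libraries, 1035 kept their direction and call, 23 passed the test where the reported value did not, and 16 turned direction. With library quality weights 20 members were lower in BAPN with fasudil against vehicle (43.5%; 30.8% of all genes called), and 10 members were called against fasudil (9 lower, 1 higher; 21.7%, against 27.6% of all genes), while Psmb8, Psmb9 and Psme1 turned to −0.0265, −0.22 and −0.0488 against vehicle. With the recovered BAPN replicate 2, 1 member was lower in BAPN with fasudil against vehicle (2.17%; 5.58% of all genes called) and 10 in BAPN against vehicle (21.7%; 6.82% of all genes). Without each library in turn, 0 to 3 members were called in BAPN with fasudil against vehicle and 0 to 5 in BAPN against vehicle, and calls appeared when BAPN replicate 1 or 3 was left out and not otherwise; the lone BAPN library is then assumed to vary like the other groups. Without scaling, the log2 fold change was 0.0228 for Psmd6 and 0.0243 for Psme2 in BAPN with fasudil against vehicle, and 0.0371 for Psmc3, 0.0534 for Psmd6 and 0.34 for Psme1 in BAPN against vehicle. Leaving out 1 library gave ranges of −0.35 to 1.45 for Psmb8, −0.58 to 1.34 for Psmb9, −0.032 to 1.13 for Psmb10 and −0.0766 to 0.70 for Psme1 in BAPN with fasudil against vehicle, −0.0552 to 0.27 for Psmb10 in BAPN against vehicle, −0.12 to 1.03 for Psmb10 against BAPN and −0.21 to 1.69 for Psmb9 against fasudil. For the log2 ratios in BAPN against vehicle it gave 0.52 to 1.99 for Psmb8 over Psmb5, 0.50 to 1.45 for Psmb9 over Psmb6 and 0.30 to 1.23 for Psmb10 over Psmb7. The replicate numbers did not pair the libraries: same-numbered libraries had correlated deviations of −0.328 to 0.210, and 0 of 12 correlated best with their own number. With a replicate block 0 members were called in every comparison, and Psmb10 turned to −0.0166 in BAPN against vehicle. Other than for lone libraries left out, the cause of these changes was not tested. With 2 to 4 libraries a group and no counts, small differences were not detectable.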
